A study of Homo sapiens with 9 samples.

Results

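The 61 genes described here are long noncoding RNA genes whose current symbol is LINC followed by digits or SNHG, and which gave a clear signal in H295R cells. They were selected on their measured level: the brightest probe set that carried a single gene symbol had to average at least 6.5 on the log2 scale over all 9 arrays. Of 19775 genes measured, 851 carried such a symbol and 61 reached the level, 56 LINC genes and 5 SNHG genes. H295R is an established human line from an adrenocortical carcinoma and secretes steroids. Its cells had been exposed for 3 h to the vehicle DMSO, to angiotensin II at 100 nM, or to torcetrapib at 100 nM, labelled CP-529414. Angiotensin II is the peptide that drives aldosterone release, and torcetrapib blocks the cholesteryl ester transfer protein (CETP). Each group held 3 arrays of total RNA, all from this single line, and the question put by the study was whether CETP inhibition turns on renin-angiotensin-aldosterone signalling in cells of this kind. Nothing in the labels ties the arrays to separate cultures. The p-values therefore reflect only how far these samples spread, and that spread may be technical.

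Long intergenic noncoding RNAs are transcribed from their own genes, spliced and polyadenylated much like messenger RNAs, and do not encode a known protein. SNHG genes are hosts of small nucleolar RNAs: the snoRNAs are cut from their introns and guide chemical modification of ribosomal RNA, while the spliced host transcript is often removed by nonsense-mediated decay. LINC00473 is the member whose control is best described. Cyclic AMP activates protein kinase A, which phosphorylates the transcription factor CREB, and CREB with its CRTC coactivators binds a sequence of which TGACG is the core and TGACGTCA the full palindrome. LINC00473 is a known target of this route, and its RNA has been found bound to NONO, a protein that works with the CRTC coactivators. Angiotensin II acts on adrenal cells chiefly through a receptor coupled to calcium and protein kinase C.

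The promoter of LINC00473 is shown first, because this gene carried the largest change among the members. The window runs from 250 bases before to 50 bases after the annotated start at chr6:165987990-165988289 on the minus strand of GRCh38.p14, from RefSeq, and capitals mark TGACG on either strand.
LINC00473: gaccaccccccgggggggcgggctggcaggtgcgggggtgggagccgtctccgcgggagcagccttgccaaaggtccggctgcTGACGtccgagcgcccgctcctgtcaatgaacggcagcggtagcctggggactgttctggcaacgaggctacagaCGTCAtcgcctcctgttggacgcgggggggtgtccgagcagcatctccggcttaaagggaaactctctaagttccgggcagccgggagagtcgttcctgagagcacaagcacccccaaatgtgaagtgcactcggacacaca
The 2 matches lay 167 to 163 and 92 to 88 bases before the start. Of 35116 promoter windows of this length, 6.02% held 2 or more TGACG, and of the 56 windows found for 48 of the 61 members 10.7% did. At least 1 TGACG stood in 24.6% of all windows and in 35.7% of the members' windows, which belonged to 16 members. The full palindrome, which contains TGACG, stood in 1.85% of all windows and in those of 1 member, LINC03011. It is shown with the palindrome in capitals, at chr7:66493590-66493629 on the plus strand.
LINC03011: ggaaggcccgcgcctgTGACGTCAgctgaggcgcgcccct
These matches describe the letters of the window and are no evidence of binding.

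A pair of further motifs was searched on both strands. TGANTCA, the form that AP-1 factors such as FOS bind, stood in 7.71% of all windows and in those of 3 members, LINC00963, LINC01016 and LINC02762. AAAGGTCA, the form that NR4A nuclear receptors bind, stood in 1.22% of all windows and in none of the members' windows.

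LINC00473 rose with both treatments and is the only member called with torcetrapib. Its log2 expression was 6.32, 6.16 and 6.52 on the DMSO arrays, 8.04, 8.09 and 8.19 with angiotensin II, and 7.08, 7.08 and 7.11 with torcetrapib. The 3 groups did not overlap, with angiotensin II highest, torcetrapib between and DMSO lowest. In the limma fit, angiotensin II raised it by 1.77 ± 0.09 (SE) on the log2 scale, 3.42-fold, with a 95% interval of 1.57 to 1.97 and an adjusted p of 2.85e-09. Torcetrapib raised it by 0.75 ± 0.09, 1.69-fold, with an interval of 0.55 to 0.95 and an adjusted p of 0.000502 in limma. The difference between the treatments was itself tested: torcetrapib minus angiotensin II was -1.02 ± 0.09, 2.03-fold lower, at an adjusted limma p of 2.97e-06. Both agents were given at the same concentration and for the same time. Both treatment comparisons share the DMSO arrays. The gene reached the level of 6.5 only through the treated arrays, since its DMSO mean was 6.33, so its place among the members and its difference between groups are not separate facts. It was measured by 1 probe set.

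**Figure D1:**
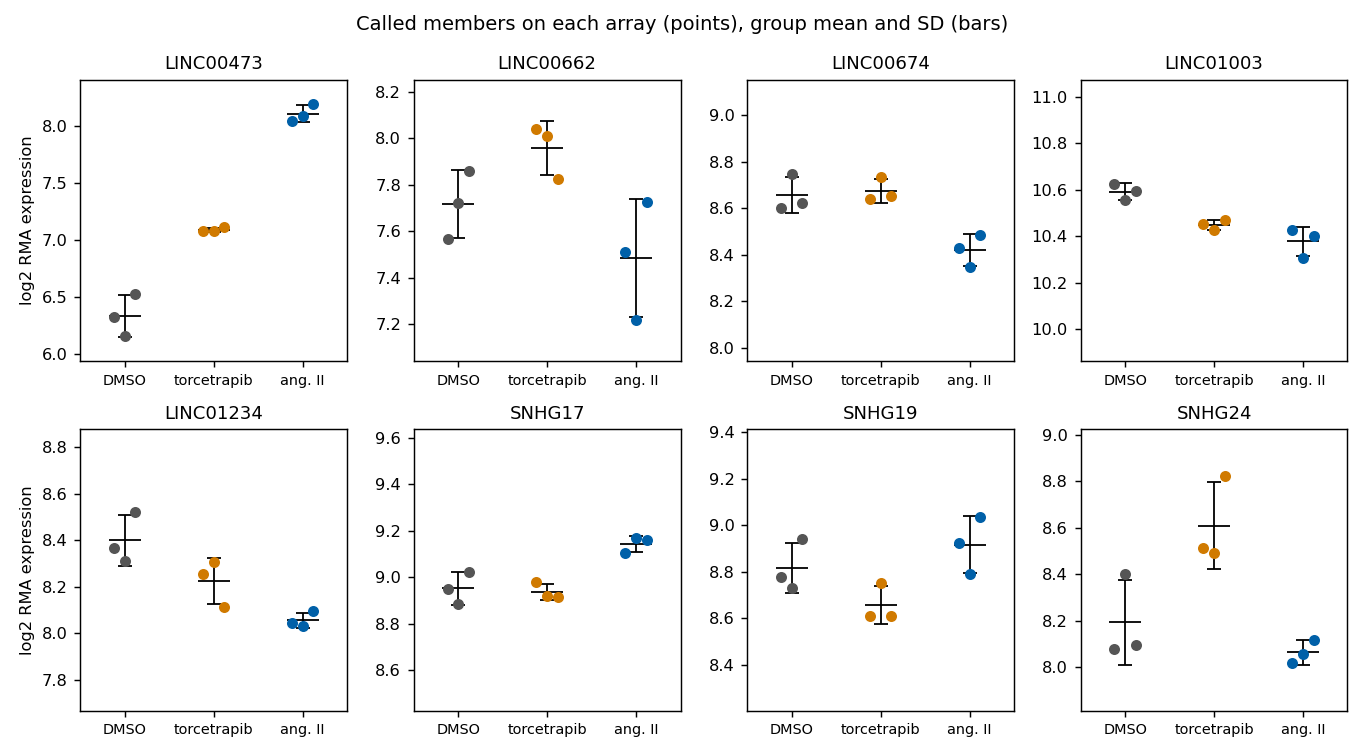
Log2 RMA expression of the 8 members called in at least 1 comparison, by group (DMSO, torcetrapib, angiotensin II), with 1 point per array and bars for the group mean and SD (n = 3); each panel has its own axis range. LINC00473 spans 6.16 to 8.19 with 3 separate groups, while the other 7 members move by less than 0.6 between group means.

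Most of the listed genes known to answer cAMP and CREB rose, as LINC00473 did. Of 11 such genes 10 were measured, and 8 rose with angiotensin II, where 3.36% of all genes did, with a median change of 2.77 over the 10. With torcetrapib 7 rose, where 0.592% of all genes did, with a median of 0.96. Between the treatments 8 were lower with torcetrapib than with angiotensin II, as were 6.68% of all genes, with a median difference of -1.14. The medians over all genes were 0.01, -0.03 and -0.04. The list was drawn up with earlier results of these data known, and its direction is therefore not independent evidence.

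NR4A2, an orphan nuclear receptor, rose by 4.85 ± 0.10 with angiotensin II and by 3.63 ± 0.10 with torcetrapib. SIK1, a kinase that restrains the CRTC coactivators, rose by 2.81 ± 0.09 and by 1.74 ± 0.09. PDE4B, which degrades cAMP, rose by 1.39 ± 0.09 and by 0.57 ± 0.09. FOSB, a partner in AP-1, rose by 3.86 ± 0.12 with angiotensin II, and its value of 0.50 ± 0.12 with torcetrapib did not pass the test (adjusted p = 0.064, limma). PDE4D and PDE10A, phosphodiesterases likewise, passed in neither treatment, and the PDE10A values were below 0, at -0.09 and -0.06. PDE10A was dim, at a mean of 5.12 with DMSO.

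**Figure D2:**
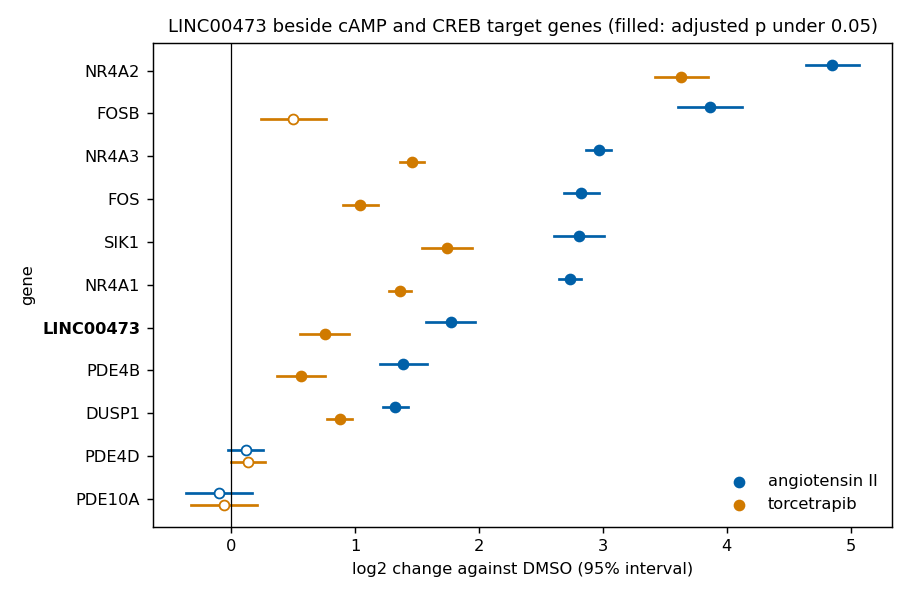
Log2 change against DMSO with its 95% interval for LINC00473 and the 10 measured cAMP and CREB target genes, with angiotensin II in blue and torcetrapib in orange; filled points have an adjusted p under 0.05 (limma). LINC00473, at 1.77 and 0.75, lies among the called genes, with its angiotensin II change the larger of the pair as in each called gene.

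RNA levels of the route's own factors were mostly not called against DMSO, and phosphorylation was not measured. Of 10 CREB factors and coactivators 9 were measured. CREM, a CREB relative that also has repressor forms, was the only one to rise in a treatment, by 0.32 ± 0.04 with angiotensin II and 0.28 ± 0.04 with torcetrapib (adjusted p = 0.000188 and 0.00475, limma). Over all genes 3.36% and 0.592% rose. CREB1 changed by -0.09 and 0.04, and NONO by -0.05 and -0.04, and neither passed the test. The CREB1 probe set was dim, at a mean of 5.10 with DMSO. CRTC2, CRTC3 and PRKACA, the catalytic subunit of protein kinase A, were lower with torcetrapib than with angiotensin II, with differences of -0.27, -0.20 and -0.29. In that comparison 6.68% of all genes were lower. The treatments also differed in a sign of RNA quality described below, and these differences are not adjusted for it. LINC03011, with the full palindrome in its promoter window, changed by -0.04 ± 0.11 with angiotensin II and -0.09 ± 0.11 with torcetrapib. Its 95% intervals were -0.28 to 0.19 and -0.33 to 0.14. A relation of motif to change was not tested.

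LINC00473 lies within the span of PDE10A in the gene table. PDE10A, by its own probe set, changed by -0.09 ± 0.12 with angiotensin II and -0.06 ± 0.12 with torcetrapib. The nearest measured coding genes on either side, C6orf118 and TBXT, were not called in any comparison.

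Across the 61 members, calls were few and near the share of all genes. With angiotensin II 1 member was higher, 1.64% of the members against 3.36% of all 19775 genes, and 3 were lower, 4.92% against 2.76%. With torcetrapib 1 was higher, 1.64% against 0.592%, and 0 were lower, against 0.566%. That single torcetrapib call is LINC00473, as is the 1 member higher with angiotensin II. Because LINC00473 reached the level only through its treated arrays, both shares of 1.64% depend partly on the selection. At an unadjusted p under 0.05 in limma 4 members were higher and 8 lower with torcetrapib. Torcetrapib against angiotensin II gave 3 higher, 4.92% against 4.61%, and 3 lower, 4.92% against 6.68%. Of the 61 members 53 were called in no comparison. RNA was taken from whole cultures, so a change in the RNA per cell and in the number of cells holding it cannot be told apart.

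Most members were held to small changes rather than left unresolved. The 95% interval lay within 1.5-fold in both directions for 60 of 61 members with angiotensin II, the exception being LINC00473, and for 59 of 61 with torcetrapib, the exceptions being LINC00473 and SNHG24. The corresponding shares were 98.4% and 96.7% of the members, against 96% and 98.2% of all genes. The median change of the members was -0.03 with each treatment. The SD within a group had a median of 0.09 over members and groups, with a range of 0.01 to 0.28.

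**Figure D3:**
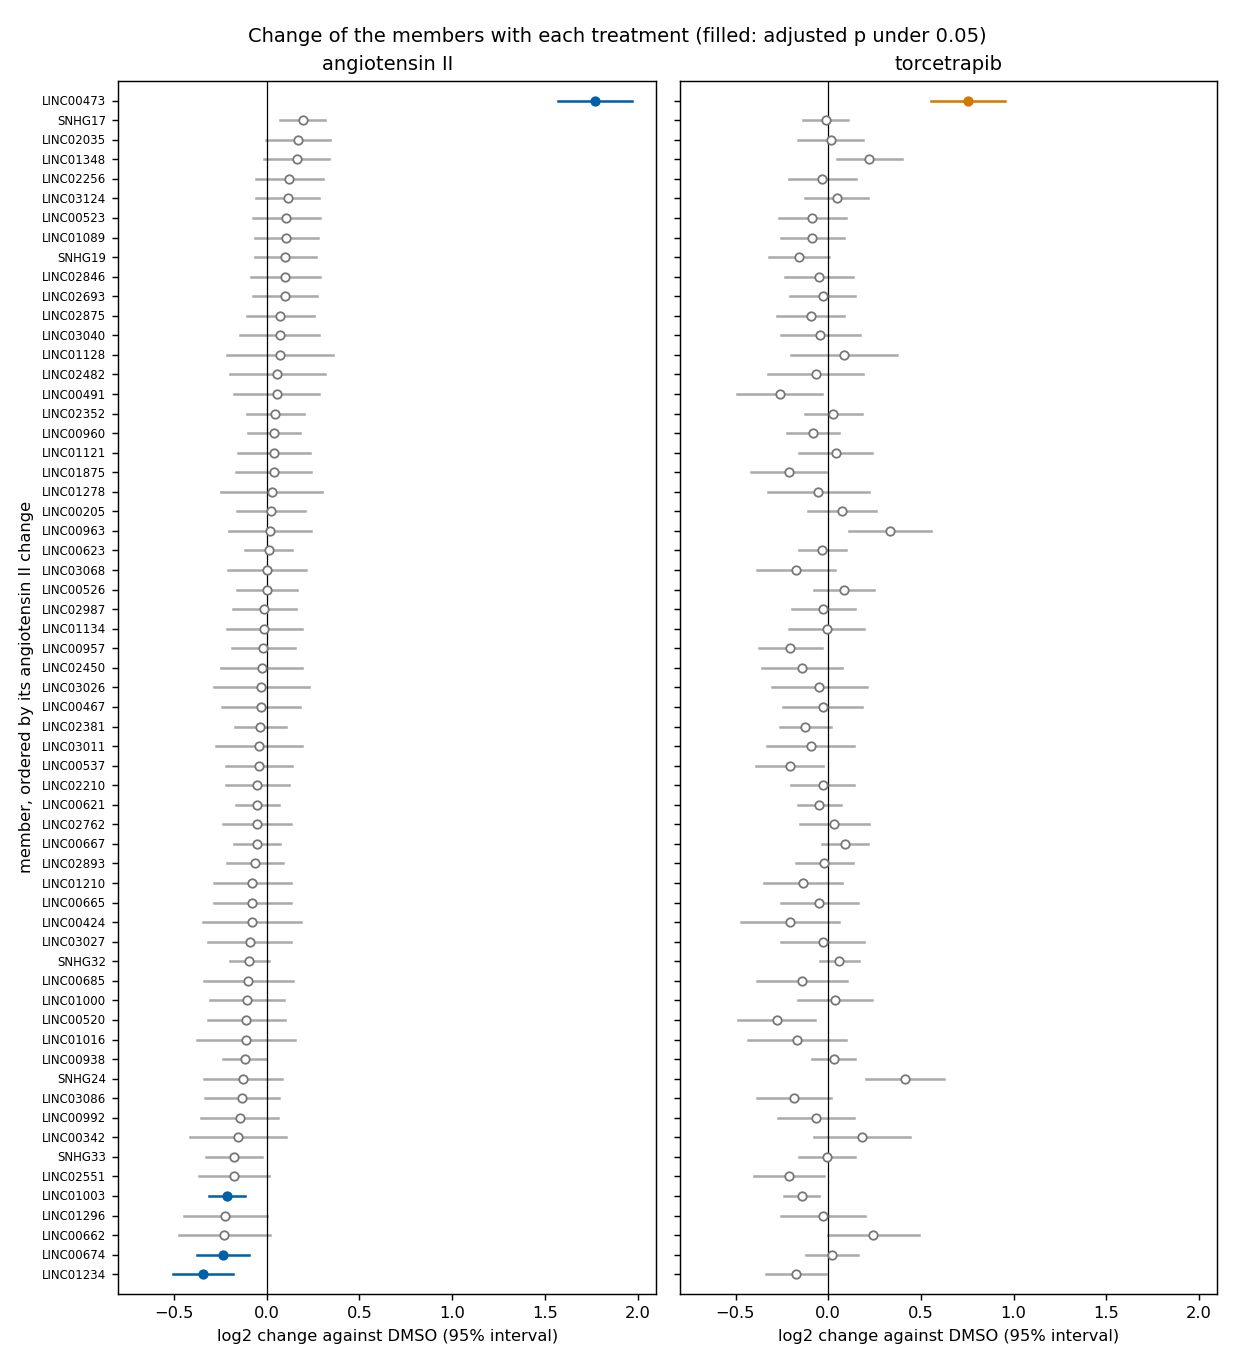
Log2 change against DMSO with its 95% interval for all 61 members, angiotensin II at left and torcetrapib at right, in the order of the angiotensin II change; filled points have an adjusted p under 0.05 (limma). LINC00473 stands at 1.77 and 0.75, the other members lie between -0.34 and 0.42, and 3 are filled on the low side with angiotensin II only.

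LINC01234, LINC01003 and LINC00674 fell with angiotensin II, by 1.27-fold, 1.16-fold and 1.18-fold. LINC01234, an RNA mostly studied in tumours, read 8.37, 8.31 and 8.52 with DMSO, 8.04, 8.03 and 8.09 with angiotensin II, and 8.26, 8.31 and 8.11 with torcetrapib. Every angiotensin II array lay below every other array, and the torcetrapib arrays lay between. The change was -0.34 ± 0.08 with angiotensin II (adjusted p = 0.00973, limma), and -0.17 ± 0.08 with torcetrapib (adjusted p = 0.331). The angiotensin II call was lost without DMSO replicate 3, at an adjusted limma p of 0.0561. A second, dim probe set, with a mean of 4.05, gave -0.25 ± 0.13 with angiotensin II.

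LINC01003 read 10.63, 10.56 and 10.60 with DMSO, 10.43, 10.31 and 10.40 with angiotensin II, and 10.45, 10.43 and 10.47 with torcetrapib. All treated arrays lay below all DMSO arrays. It fell with angiotensin II by 0.21 ± 0.04 (adjusted p = 0.00697, limma). The torcetrapib value of -0.14 ± 0.04 did not pass the test (adjusted p = 0.156), and the treatments did not differ beyond the threshold (0.07 ± 0.04, adjusted p = 0.352, limma). The angiotensin II call was kept in the limma fits that left out each array in turn. LINC01003 was measured by 1 probe set, an _s_at set, so the fit without such sets did not include it.

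LINC00674 read 8.60, 8.75 and 8.62 with DMSO, 8.43, 8.35 and 8.49 with angiotensin II, and 8.64, 8.74 and 8.65 with torcetrapib. The angiotensin II arrays were below the rest, and the DMSO and torcetrapib arrays overlapped. The change was -0.23 ± 0.07 with angiotensin II (adjusted p = 0.0476, limma), and the gene was higher with torcetrapib than with angiotensin II by 0.25 ± 0.07, 1.19-fold (adjusted p = 0.0209, limma). The first of these calls was close to the threshold: it was kept only without angiotensin II replicate 3 among the 9 fits that left out an array, with adjusted p up to 0.151 in the others. In all, 14 of 19 alternatives ended it, among them the mean of probe sets, at -0.16 (adjusted p = 0.273, limma), and the 5′ minus 3′ index described next, at -0.19 (adjusted p = 0.148, limma). The second was lost without angiotensin II replicate 1 or 2 or any torcetrapib array, with adjusted p from 0.0533 to 0.1. A second probe set of similar brightness, with a mean of 8.29, gave -0.03 ± 0.09 with angiotensin II and 0.09 ± 0.09 between the treatments.

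In a sign of RNA quality the torcetrapib arrays stood apart from the angiotensin II arrays, and higher on average than the DMSO arrays. DMSO replicate 2 was level with torcetrapib replicate 1, at -0.28. This sign stood beside the contrasts of torcetrapib with either other group. The 5′ minus 3′ signal of the ACTB and GAPDH control probe sets was -0.28 to -0.22 with torcetrapib, -0.63 to -0.60 with angiotensin II and -0.72 to -0.28 with DMSO. With this index as a covariate, 1 of the 6 members called between the treatments was still called, LINC00473, at a difference of -0.89 (adjusted p = 0.00997, limma). The count over all genes in that comparison went from 2232 to 280 with the covariate, and for torcetrapib against DMSO from 229 to 76. LINC00473 was still called against DMSO there, at 0.85 (adjusted p = 0.00704, limma). The other 5, LINC00662, LINC00674, SNHG17, SNHG19 and SNHG24, kept their direction with differences of 0.33, 0.12, -0.15, -0.24 and 0.26 and adjusted limma p between 0.679 and 0.86. The index did not overlap between the angiotensin II and torcetrapib arrays, so treatment and index cannot be told apart there.

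Of the 5 SNHG members, 3 were called between the treatments, a comparison in which 11.3% of all genes were called in either direction. None was called against DMSO in limma, where 1 passed an unadjusted p of 0.05 with torcetrapib and 2 with angiotensin II. The annotated starts of 4 of them are shown because hosts of snoRNAs often begin at a run of pyrimidines. SNHG24 was not matched in the gene table. Each window holds 20 bases on either side of the start on GRCh38.p14 (RefSeq), and capitals mark the unbroken run of C and T across the start. SNHG17 lies at chr20:38435309-38435348, minus strand, SNHG19 at chr16:2155339-2155378, minus strand, SNHG32 at chr6:31834896-31834935, plus strand, and SNHG33 at chr3:183447588-183447627, plus strand.
SNHG17: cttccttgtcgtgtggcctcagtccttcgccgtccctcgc
SNHG19: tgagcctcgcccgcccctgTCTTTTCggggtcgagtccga
SNHG32: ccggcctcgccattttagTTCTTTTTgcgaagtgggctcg
SNHG33: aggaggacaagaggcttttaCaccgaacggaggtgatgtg
The run was 7 bases in SNHG19 and 8 in SNHG32, 1 base in SNHG33 and 0 in SNHG17. SNHG33 had another annotated promoter window, whose start is not shown. Runs of 5 or more crossed the start in 9.6% of all windows.

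SNHG24 had the largest difference between treatments of the 5. It read 8.08, 8.40 and 8.10 with DMSO, 8.02, 8.06 and 8.12 with angiotensin II, and 8.51, 8.49 and 8.82 with torcetrapib. Every torcetrapib array lay above every other array, and DMSO replicate 2, the DMSO array with the highest index, lay nearest to them. DMSO replicates 1 and 3 read alike at indices of -0.72 and -0.50. A relation of this gene's level to the index within a group was not tested. It was higher with torcetrapib than with angiotensin II by 0.55 ± 0.10, 1.46-fold (adjusted p = 0.00206, limma). Against DMSO the torcetrapib value was 0.42 ± 0.10 and just missed the threshold (adjusted p = 0.0587, limma). That value was 0.52 without DMSO replicate 2, with an adjusted limma p of 0.00463. It passed in no other fit that left out 1 array (adjusted p from 0.061 to 0.285, limma). With the index as a covariate it was 0.22, with an adjusted limma p of 0.998.

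SNHG17, host of snoRNAs of the SNORA71 family, read 8.95, 8.88 and 9.02 with DMSO, 9.11, 9.17 and 9.16 with angiotensin II, and 8.98, 8.92 and 8.92 with torcetrapib. The angiotensin II arrays stood above the other 6. Torcetrapib minus angiotensin II was -0.21 ± 0.06, 1.15-fold lower (adjusted p = 0.0295, limma), while its value of 0.19 ± 0.06 for angiotensin II against DMSO did not pass (adjusted p = 0.0641, limma). The difference between treatments lost its call without any 1 angiotensin II or torcetrapib array (adjusted p from 0.059 to 0.103, limma). A second probe set, with a mean of 8.52, gave 0.08 ± 0.06 with angiotensin II and -0.08 ± 0.06 between the treatments.

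SNHG19, host of SNORD60, read 8.78, 8.73 and 8.94 with DMSO, 8.92, 8.79 and 9.03 with angiotensin II, and 8.61, 8.75 and 8.61 with torcetrapib. The treated groups did not overlap each other, and the DMSO arrays overlapped both. Torcetrapib minus angiotensin II was -0.26 ± 0.08, 1.2-fold lower (adjusted p = 0.0421, limma). The call was lost without DMSO replicate 1, angiotensin II replicate 1 or 3, or torcetrapib replicate 1 or 3 (adjusted p from 0.0539 to 0.154, limma). Against DMSO the values were 0.10 ± 0.08 and -0.16 ± 0.08, and neither passed. SNHG19 was measured by 1 probe set, an _x_at set.

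SNHG32, host of SNORD48 and SNORD52, read 10.27, 10.36 and 10.42 with DMSO, 10.24, 10.21 and 10.32 with angiotensin II, and 10.40, 10.42 and 10.40 with torcetrapib. The difference between the treatments, 0.15 ± 0.05, did not pass the test (adjusted p = 0.0574, limma). SNHG33 read 8.96, 8.83 and 8.86, then 8.74, 8.56 and 8.81, then 8.88, 8.93 and 8.82 in the same order of groups, and its difference of 0.17 ± 0.07 did not pass either (adjusted p = 0.145, limma). Of the 5, SNHG24 was thus called higher with torcetrapib than with angiotensin II, SNHG17 and SNHG19 were called lower, and SNHG32 and SNHG33 were not called. Among proteins that act on these RNAs, 6 of 8 listed snoRNP core proteins and 6 of 10 listed nonsense-mediated decay factors were measured. In each list 0 of 6 were called in any comparison (limma). Over all genes 6.12% were called with angiotensin II, 1.16% with torcetrapib and 11.3% between the treatments. Lists this short cannot show a difference from those shares. At an unadjusted p under 0.05, 1 snoRNP protein passed between the treatments and 0 passed against DMSO. Of the decay factors 1 passed in each comparison. UPF2, a core factor of nonsense-mediated decay, changed by -0.18 ± 0.07 with angiotensin II (adjusted p = 0.172, limma).

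LINC00662 was called between the treatments and not against DMSO. It read 7.57, 7.72 and 7.86 with DMSO, 7.51, 7.22 and 7.73 with angiotensin II, and 8.04, 8.01 and 7.83 with torcetrapib. The torcetrapib arrays lay above the angiotensin II arrays, and the DMSO arrays overlapped both. The difference was 0.47 ± 0.11, 1.39-fold (adjusted p = 0.0143, limma). It was lost without angiotensin II replicate 2 or torcetrapib replicate 1 or 2 (adjusted p = 0.0606, 0.0752 and 0.063, limma). Its other 4 probe sets were dimmer, with means from 4.24 to 6.11, and gave differences from -0.27 to 0.16.

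**Figure D4:**
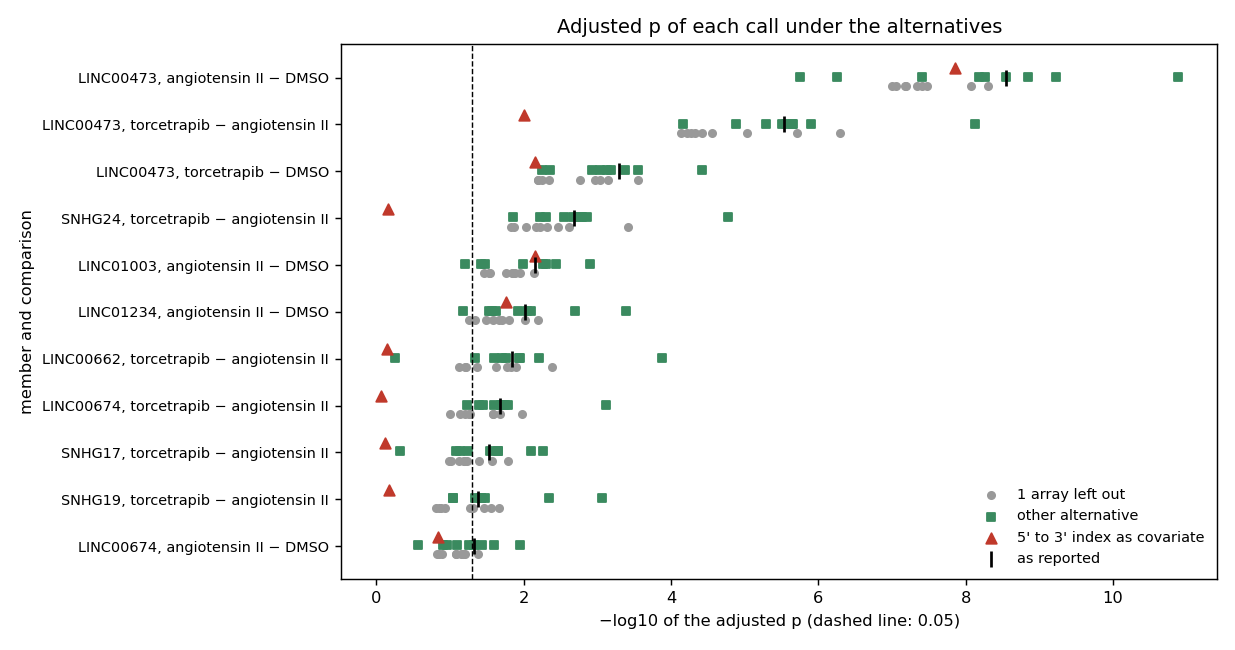
Adjusted p (limma, as -log10) of each of the 11 calls: the black bar is the value as reported, grey points leave out 1 array, green squares are other alternatives and red triangles have the 5′ minus 3′ index as a covariate. The 3 LINC00473 calls stay right of the dashed line at 0.05 throughout, and the 5 other calls between the treatments cross it with the index.

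Several members that missed the threshold had values of similar size. With angiotensin II these were LINC00662 at -0.23 ± 0.11, LINC01296 at -0.22 ± 0.11 and SNHG17 at 0.19 ± 0.06. With torcetrapib they were SNHG24 at 0.42 ± 0.10, LINC00963 at 0.33 ± 0.10 and LINC00520 at -0.28 ± 0.10. Between the treatments they were LINC00342 at 0.34 ± 0.12, LINC00963 at 0.32 ± 0.10 and LINC00491 at -0.31 ± 0.11. LINC00963 read 6.91 to 7.12 with DMSO and 7.24 to 7.51 with torcetrapib, without overlap, at an adjusted limma p of 0.154. Its second probe set, with a mean of 6.90, went the other way with torcetrapib at -0.07 ± 0.12. LINC02210 also had probe sets that differed, with -0.03 ± 0.08 on the brightest and -0.39 ± 0.13 on the second for torcetrapib. Of the 70 other probe sets of the members, 20 in 17 members reached 6.5, and none of these 20 changed by more than 0.39.

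Of 15 coding genes next to or over 7 called members, 1 was called with angiotensin II, where 6.12% of all genes were called in either direction, and 0 with torcetrapib, where 1.16% were (limma). AMZ2, beside LINC00674, fell with angiotensin II by 0.17 ± 0.05 (adjusted p = 0.0421, limma), the same direction as its neighbour, whose change was -0.23. Between the treatments, where 11.3% of all genes were called, 4 of the 15 were, all higher with torcetrapib. They were XRCC2, a DNA repair protein beside LINC01003, by 0.68 ± 0.14, AMZ2 by 0.20 ± 0.05, and ZNF254 and POP4, beside LINC00662, by 0.32 and 0.24. With the index as a covariate 0 of the 15 were called in that comparison in limma. XRCC2 stood at 0.66 there with an adjusted p of 0.372.

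Of 25 listed long noncoding RNAs outside the naming rule, 22 were measured. In either direction 3 were called with angiotensin II, 1 with torcetrapib and 4 between the treatments, where 6.12%, 1.16% and 11.3% of all genes were called. With angiotensin II CYTOR rose by 0.59 ± 0.14 and DANCR by 0.22 ± 0.04, while DLEU2, host of a tumour-suppressor microRNA cluster, fell by 0.34 ± 0.07 (adjusted p = 0.0185, 0.00509 and 0.00371, limma). With torcetrapib only TUG1 was called, and it fell by 0.17 ± 0.04 (adjusted p = 0.0337, limma). Between the treatments DLEU2 and CRNDE were higher with torcetrapib by 0.41 and 0.19, and CYTOR and LINC-PINT were lower, with differences of -0.64 and -0.41. These differences are not adjusted for the index, which also separated the treatments. CYTOR was dim, at a mean of 4.69 with DMSO and 5.28 ± 0.35 (SD, n = 3) with angiotensin II. GAS5 and ZFAS1, snoRNA hosts without the SNHG name, and MALAT1 were called in no comparison.

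The members just inside the level were LINC01121 at 6.59, LINC01128 at 6.55 and LINC01875 at 6.53, and those just outside were LINC01138 at 6.49, LINC03048 at 6.47 and LINC01504 at 6.47. Besides LINC00473, 4 members had a group mean under 6.5: LINC00491, LINC01348, LINC01128 and LINC01875. LINC02239, a candidate below the level, averaged 5.54 ± 0.23 (SD, n = 3) with DMSO and 4.83 ± 0.11 with torcetrapib, and is not a member. A further 31 probe sets that name an SNHG gene together with other genes, often the snoRNAs in its introns, could not be assigned to 1 gene and hold none of the members. The line's identity was checked on 9 adrenocortical markers, whose mean lay between 9.34 and 9.62 on every array, with CYP11B1 dim at 4.34. The mean of 9 fibroblast, endothelial and immune markers was 5.03 to 5.31 and that of 5 medulla markers 6.14 to 6.30. Single markers overlapped between the lists. With DMSO the medulla marker CHGB averaged 8.46 and the fibroblast marker COL1A1 7.72. Both lay above the adrenocortical markers NR5A1, at 7.08, and MC2R, at 6.93. Of the 9 adrenocortical markers 4 rose with angiotensin II, among them STAR, where 3.36% of all genes did. With torcetrapib 1 rose, where 0.592% of all genes did. Between the treatments, which also differed in the index, 4 were lower with torcetrapib, as were 6.68% of all genes.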

How the data were processed

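The authors deposited 1 log2 value per probe set and array, computed by RMA (robust multi-array averaging) per the submitters' processing notes; its software version is not given in the sources used here. Total RNA was biotin-labelled and hybridised to Affymetrix arrays, per the labels. Array medians were 5.54 to 5.60, and the number of arrays limits the precision.

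Of 54675 probe sets, 62 were controls, 11721 had no symbol, 1801 had several and 41091 had 1. The 19775 genes were each taken from their brightest single-symbol probe set. Members and lists were chosen with earlier results of these data known. The text names members called in any comparison, LINC00473, LINC02239, all SNHG members, those nearest the level, the 3 largest uncalled values per comparison, members whose probe sets differ, list genes, and neighbours by position. LINC03011, LINC01016 and LINC02762 were named for their promoter motifs. Of the members 59 of 61 were in the gene table, all but SNHG24 and LINC01296.

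All genes entered a limma 3.58.1 model of the 3 groups in R 4.3.3 (trend, two-sided, 6 residual degrees of freedom), with Benjamini-Hochberg adjustment over all genes and a threshold of 0.05. Intervals are 95% and unadjusted. The fit was tested on simulated data, with a pass mark lowered after the first run missed it. Values of second probe sets come from the same model on probe sets and carry no call. Alternatives were variance moderation, dim-gene filter, centring, renormalisation, probe set choice, array weights, 2-group fits, each array left out, thresholds, member level and the index.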

Additional observations from a re-analysis of the deposited data

How the results depend on the processing

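No paired analysis was possible because the sample labels give the groups no shared replicate number. LINC00473 kept its direction and its call in all 3 comparisons under each of the 19 alternatives run, with changes of 1.68 to 1.87 (angiotensin II), 0.67 to 0.85 (torcetrapib) and -1.06 to -0.89 (between the treatments). No member called as reported changed sign. Against the 4 members called with angiotensin II, 2 were called without the variance trend, 2 with the mean of probe sets, 2 without _x_at and _s_at probe sets (which left 53 of 61 members) and 9 with array weights, and 3 to 4 when each array was left out. Against the 1 called with torcetrapib, 2 were called with robust moderation, 2 with the dim-gene filter, 7 with array weights and 2 at an adjusted p under 0.1, and 1 to 3 when each array was left out, the 3 being without DMSO replicate 2. Against the 6 called between the treatments, 3 were called with centred arrays (2 higher, 1 lower, against 3 and 3), 26 with array weights, 1 with the index as a covariate, 2 at an adjusted p under 0.01 and 11 under 0.1, and 2 to 8 when each array was left out, with 2 without torcetrapib replicate 1 and 3 without torcetrapib replicate 2 or 3. The array weights gave angiotensin II replicate 1 a weight of 6.15, against 0.448 and 0.48 for its group's other arrays. Among its 18 alternatives LINC01003 lost its call only without the trend (adjusted p = 0.0631, limma). It was absent from the fit without _x_at and _s_at probe sets. LINC01234 lost its call with the mean of probe sets (adjusted p = 0.0674, limma) and without DMSO replicate 3 (0.0561). The cause of these shifts was not tested. Dim probe sets limit what could be seen: 790 of the 851 candidates lay below the level.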

Other observations

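Below the level of 6.5, 790 LINC and SNHG candidates were dimmer, and 0.633% of them were called with angiotensin II, 0.127% with torcetrapib and 2.03% between the treatments, below the 6.12%, 1.16% and 11.3% of all genes called in either direction. LINC00622 had the largest change of those called. Its DMSO arrays read 4.05, 3.66 and 3.96, its angiotensin II arrays 4.9997, 5.58 and 5.47, and its torcetrapib arrays 3.97, 3.98 and 4.09. The angiotensin II arrays lay above the other 6. It rose with angiotensin II by 1.46 ± 0.14, 2.75-fold (adjusted p = 2.7e-06, limma), and torcetrapib minus angiotensin II was -1.34 ± 0.14 (adjusted p = 1.03e-05, limma). LINC01711, LINC00877 and LINC01187 also rose with angiotensin II, by 0.49, 0.45 and 0.35, and LINC02076 fell by 0.54. With torcetrapib the 1 call was LINC02239, and these genes were picked for their calls.

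Of the probe sets that name an SNHG gene together with other genes, 19 had a mean of at least 6.5. Their changes ran from -0.38 to 0.58 with angiotensin II and from -0.11 to 0.84 with torcetrapib, and their differences between the treatments from -0.39 to 1.22. The medians were 0.02, 0.04 and -0.03. No gene can be named for them, and they entered no test adjusted over genes.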
